A study of Homo sapiens with 20 samples.

Results

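The nuclear-encoded subunits of the respiratory chain were described as 1 group in human cells with and without ALKBH5, the demethylase that removes N6-methyladenosine (m6A) from mRNA. Members were the protein-coding genes whose symbol begins with NDUFA (not NDUFAF), NDUFB, NDUFC, NDUFS, NDUFV, UQCR, COX4, COX5, COX6, COX7, COX8 or ATP5, together with SDHA, SDHB, SDHC, SDHD and CYC1. The rule took 91 of 19895 protein-coding genes in the files: 38 of complex I, 4 of complex II, 10 of complex III, 19 of complex IV and 20 of complex V. NDUFA4 and NDUFA4L2 were placed with complex IV, where NDUFA4 is now known to belong. The rule also took the readthrough genes NDUFC2-KCTD14 and ATP5MF-PTCD1, the inhibitor ATP5IF1 and the gene copies UQCRHL and ATP5MGL.

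The respiratory chain sits in the inner mitochondrial membrane. Complex I (NADH dehydrogenase) and complex II (succinate dehydrogenase, also an enzyme of the tricarboxylic acid cycle) pass electrons to ubiquinone, complex III passes them on to cytochrome c and complex IV (cytochrome c oxidase) to oxygen, and complex V, the ATP synthase, uses the proton gradient that complexes I, III and IV build. Most subunits are encoded in the nucleus and imported, while a small core of complexes I, III, IV and V is encoded by mitochondrial DNA. In beta cells of the pancreas, ATP made by this chain couples glucose to the release of insulin.

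All samples were derived from MEL1 INS-GFP/W, a human embryonic stem cell line that carries a GFP reporter at the insulin locus of 1 allele, shared by both genotypes, either wild type (WT) or with ALKBH5 knocked out (A5-KO). Islet-like organoids (hILOs) were sequenced as 2 WT and 2 A5-KO libraries, without drug. Pancreatic progenitors (PPs), an earlier stage of the same differentiation, were collected after 0, 1, 2 or 3 h in actinomycin D, which stops transcription, at 1 μg per ml, 16 libraries in all, 2 per genotype at each time. The labels do not say how many knockout clones were used or whether replicates were separate differentiations, so p-values measure the spread between these libraries only. The hILO files give TPM, which is scaled by gene length and library, and the PP files give CPM, a share of each library's reads. The 2 tables were made separately, so no test was made across stages.

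ALKBH5 itself stood at 78.8 and 81.9 TPM in WT hILOs and at 4.16 and 3.42 TPM in A5-KO hILOs. In PPs it lay between 33.7 and 172 CPM in WT and between 7.43 and 19.1 CPM in A5-KO libraries. Each PP library rested on 30516384 to 35206514 reads. The PP markers PDX1, NKX6-1 and SOX9 were present in every PP library, PTF1A had a mean under 1 CPM in each PP group, and POU5F1 and NANOG, which mark pluripotent cells, had means under 1 in every group of both stages. In hILOs the 8 endocrine markers summed to 34651 to 36966 TPM in WT and 26629 to 27843 TPM in A5-KO, and the 8 hepatocyte markers to 19738 to 20091 TPM in WT and 32139 to 32426 TPM in A5-KO. In whole cultures, fewer cells of a type and less RNA per cell cannot be told apart.

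Promoters of these genes often carry sites for NRF1, nuclear respiratory factor 1, and for ETS proteins such as GABP, both known regulators of respiratory genes. The letters GCATGCGC (core of the NRF1 motif) and CCGGAAG (ETS motif) were searched on both strands in the 250 bases before each RefSeq gene start (GRCh38.p14). Matches of the motifs can overlap by at most 1 base, and each motif was counted once per gene. Of 71 members with an entry, 13 (18.3%) held GCATGCGC and 18 (25.4%) held CCGGAAG, against 5.68% and 18.6% of 9960 protein-coding genes tested in PPs. The members were not limited to those tested in PPs, since 14 of complex IV had an entry and 12 were tested. The NRF1 letters were found in 4 of 14 complex V, 5 of 33 complex I, 2 of 14 complex IV, 2 of 3 complex II and 0 of 7 complex III members with an entry. A match describes the letters and shows no binding. The 150 bases before the start are shown for 4 members called in a comparison described further on, chosen after values were seen among stretches that hold no annotated exon, with motif matches in capitals, 5′ to 3′ on the gene's strand. NDUFA5 lies at chr7:123557905-123558054 (minus strand), COX5B at chr2:97645912-97646061 (plus), COX8A at chr11:63974470-63974619 (plus) and ATP5F1E at chr20:59032346-59032495 (minus).
NDUFA5: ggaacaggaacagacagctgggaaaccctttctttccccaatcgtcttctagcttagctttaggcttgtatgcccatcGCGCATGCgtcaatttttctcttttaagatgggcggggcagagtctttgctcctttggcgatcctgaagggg
COX5B: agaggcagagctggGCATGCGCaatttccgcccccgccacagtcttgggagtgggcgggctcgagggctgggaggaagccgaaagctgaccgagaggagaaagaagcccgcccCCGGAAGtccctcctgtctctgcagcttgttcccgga
COX8A: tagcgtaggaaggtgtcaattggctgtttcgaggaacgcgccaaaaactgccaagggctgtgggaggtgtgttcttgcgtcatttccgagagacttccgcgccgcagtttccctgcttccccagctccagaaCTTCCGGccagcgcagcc
ATP5F1E: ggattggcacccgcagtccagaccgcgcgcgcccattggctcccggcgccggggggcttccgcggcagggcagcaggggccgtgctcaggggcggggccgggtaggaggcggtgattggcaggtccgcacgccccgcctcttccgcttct
The COX5B stretch holds both motifs, those of NDUFA5 and COX8A hold 1 each, and that of ATP5F1E holds neither. The same stretch of COX7C, also called and free of annotated exons, holds neither motif and is not printed.

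In hILOs the members together took 21225 to 22400 TPM, or 2.3% to 2.52% of each library's sum. At 10 TPM or more stood 82 of the 91 members. The median of these was 426 TPM for complex IV, 307 TPM for complex V, 227 TPM for complex III, 173 TPM for complex I and 144 TPM for complex II. COX7C, a small subunit of complex IV, was the highest member, at 1067 and 1017 TPM in WT against 1041 and 1067 TPM in A5-KO. The highest members of the other complexes were ATP5F1B, the catalytic beta subunit of the ATP synthase (mean 888 TPM), NDUFA13 of complex I (745 TPM), UQCRH, the hinge protein of complex III (588 TPM), and SDHD, a membrane anchor of complex II (172 TPM). The lowest members that were expressed were NDUFV3 of complex I, at a mean of 14.4 TPM, COX7B of complex IV (80.5 TPM), SDHA, the flavoprotein of complex II (95.4 TPM), and UQCRHL, a copy of UQCRH without introns (4 TPM).

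Tissue-specific forms of complex IV subunits were at or near 0 at both stages. COX4I2, COX6A2, COX6B2, COX7A1, COX7B2, COX8C and NDUFA4L2 had hILO means under 1 TPM, as did ATP5MGL, and these 8 also had means under 1 CPM over the PP libraries. Their widely expressed counterparts were high. COX4I1 ranged from 715 to 825 TPM, COX6A1 from 889 to 1013 TPM, COX6B1 from 531 to 587 TPM and COX8A from 549 to 642 TPM. COX7A2, the liver-type form of its subunit, ranged from 332 to 398 TPM, and COX7A2L, which helps to join complexes III and IV, from 124 to 134 TPM. The muscle and heart forms COX6A2 and COX7A1 reached at most 0.273 and 0.865 TPM.

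In PPs most members were expressed, but some that were high in hILOs had almost no reads. Per kilobase of the canonical transcript, the highest at 0 h were COX7C (586 CPM per kb), ATP5F1B (522), ATP5MC2, a copy of the c-ring subunit (497), UQCRH (452) and COX4I1 (451). By contrast 8 members at 10 TPM or more in hILOs had PP means under 5 CPM. NDUFA6, a complex I subunit at 129 to 137 TPM in hILOs, reached no more than 0.0863 CPM in any PP library. NDUFV2, an iron-sulfur subunit of complex I, stood at 244 to 257 TPM in hILOs and at most at 0.927 CPM in PPs. NDUFA13 stood at 729 to 759 TPM in hILOs and at 1.17 to 2.37 CPM in PPs, and NDUFB8 at 246 to 277 TPM and 2.04 to 3.64 CPM. The other 4 were NDUFA3, NDUFA7, NDUFC2-KCTD14 and ATP5MF-PTCD1. These 8 shared a median of 30.4% of their exon bases with another annotated gene, against 0.95% for the 74 other members at 10 TPM or more, but NDUFA6 shared none. How reads in shared exons were counted is not given in the sources used here, and its part in these low values was not tested. The low values are therefore those of the table and give no measure of the absence of the transcript.

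Respiratory chain transcripts differed little between genotypes in hILOs. Of 83 members with a mean of at least 1 TPM, 1 was called lower and 0 higher in A5-KO by limma, with calls made at a Benjamini-Hochberg adjusted p under 0.05 and more than 1.5-fold. Over all 17300 genes tested the called share was 6.79%, with 2.7% higher and 4.09% lower. Without adjustment, 16 members were higher and 4 lower at p below 0.05, against 2106 and 3238 of 17300 genes. The median A5-KO minus WT difference on the log2(TPM + 1) scale was 0.05 for members and -0.06 for all genes. Of the members, 34 (41%) had both A5-KO libraries above both WT libraries, where 24.3% of all genes did, and 8 (9.64%) had both below, where 37.1% of all genes did.

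The member called was NDUFA5, an accessory subunit of the peripheral arm of complex I. It measured 116 and 111 TPM in WT against 52.5 and 64 TPM in A5-KO hILOs. Both A5-KO values lay below both WT values, and the transcript fell by 0.96 on the log2 scale (SE 0.107, adjusted p = 0.016, limma). Leaving out 1 library at a time gave differences from -1.10 to -0.82, and the call was lost without WT replicate 1 (adjusted p = 0.086) or without WT replicate 2 (adjusted p = 0.085). GENCODE names 12 pseudogenes of NDUFA5, and reads shared with them may be placed on either. In PPs at 0 h NDUFA5 measured 118 and 117 CPM in WT against 138 and 121 CPM in A5-KO, a difference of 0.14 (adjusted p = 0.43, limma).

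**Figure D1:**
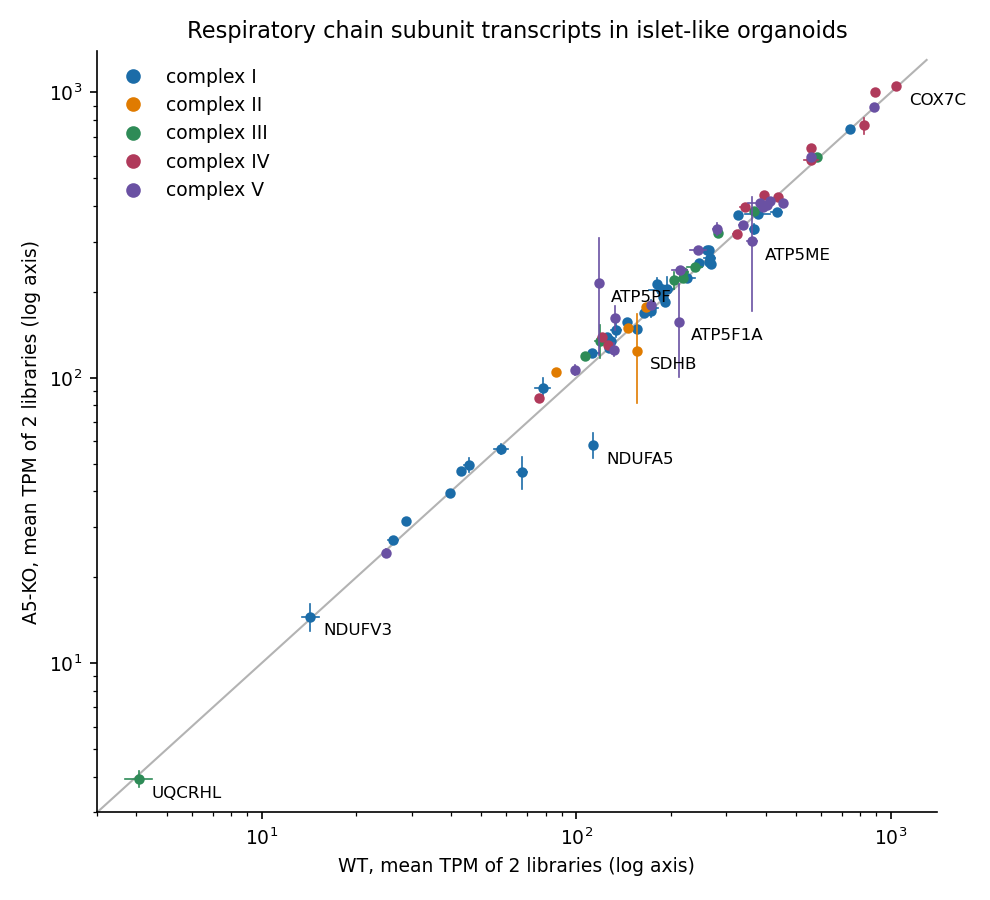
Mean TPM of each of the 83 members at 1 TPM or more in WT hILOs (horizontal, log axis) against A5-KO hILOs (vertical, log axis), coloured by complex, with lines joining the 2 libraries of each genotype and a grey line of equal values. NDUFA5 sits below the line of equal values, and the A5-KO libraries of ATP5PF, ATP5F1A, ATP5ME and SDHB lie far apart.

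Some of the largest differences between genotypes in hILOs came from 1 library. ATP5F1A, the alpha subunit of the ATP synthase, measured 216 and 208 TPM in WT against 101 and 214 TPM in A5-KO. ATP5PF, a peripheral stalk subunit, measured 116 and 120 TPM in WT against 309 and 120 TPM in A5-KO. SDHB, the iron-sulfur subunit of complex II, measured 156 and 156 TPM in WT against 167 and 81.9 TPM in A5-KO. In these 3 genes 1 A5-KO library stood near WT and the other did not. ATP5ME, a small membrane subunit of the ATP synthase, measured 376 and 349 TPM in WT against 171 and 430 TPM in A5-KO. These 4 members differed 2.03-fold to 2.57-fold between the 2 A5-KO libraries, where 3.87% of 9466 genes at a mean of 10 TPM or more differed by more than 1.5-fold. The remaining members at 10 TPM or more stayed within 1.5-fold between replicates of either genotype.

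SDHA measured 86.5 and 85.9 TPM in WT against 105 and 104 TPM in A5-KO, a difference of 0.27 (SE 0.042, adjusted p = 0.029, limma) that did not reach 1.5-fold. COX6A1 measured 898 and 889 TPM in WT against 999 and 1013 TPM in A5-KO, a difference of 0.17 (adjusted p = 0.03, limma). COX8A and NDUFB9, a complex I subunit, likewise passed the adjusted p but not the limit on the fold. NDUFC1, a small membrane subunit of complex I, measured 69.9 and 64.7 TPM in WT against 40.7 and 52.6 TPM in A5-KO (difference -0.53, adjusted p = 0.084, limma), and ATP5MC1, another copy of the c-ring subunit, 136 and 130 TPM in WT against 147 and 178 TPM in A5-KO (difference 0.28, adjusted p = 0.17, limma). By complex, the median differences were 0.03 for I, 0.06 for II, 0.08 for III, 0.10 for IV and 0.02 for V. The endocrine and hepatocyte marker sums given above also differed between the genotypes, though not every marker moved with its sum. Of 8 endocrine markers 1 was called higher and 4 lower in A5-KO, and of 8 hepatocyte markers 3 higher and 1 lower. The 6 mesenchyme markers summed to 6.56 to 13.7 TPM in WT against 41.1 to 47.4 TPM in A5-KO, with COL1A1 and DCN under 1 TPM in both and 3 of 4 tested called higher, and the 5 intestine markers to 810 TPM against 1055 to 1068 TPM, with 0 called. The part of these markers in the differences was not tested.

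Before actinomycin D, no member was called between the genotypes in PPs. Of 77 members tested at 0 h, limma called 0 in either direction, and edgeR and DESeq2 on the reads recovered from CPM also called 0, while 2.7% of 13911 genes were called by limma. Without adjustment, 7 members were higher and 0 lower in A5-KO at p below 0.05, against 1531 and 1153 of 13911 genes. The median difference on the log2(CPM + 1) scale was 0.06 for members and 0.03 for all genes, and the member median ranged from 0.00 (WT replicate 1 left out) to 0.12 (A5-KO replicate 1 left out), with 0.02 when A5-KO replicate 2 was left out. Both A5-KO libraries lay above both WT libraries for 25 members (32.5%, against 29% of all genes) and below for 5 (6.49%, against 20.8%).

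Among members at a mean of 10 CPM or more, 3 in each direction stood farthest apart at 0 h. NDUFA9, a complex I subunit, measured 9.39 and 11.3 CPM in WT against 14 and 13.6 CPM in A5-KO (difference 0.39, SE 0.147, adjusted p = 0.19, limma). SDHD measured 58 and 52.8 CPM in WT against 69 and 68 CPM in A5-KO (0.30, adjusted p = 0.11, limma). NDUFC2 of complex I measured 22.6 and 24 CPM in WT against 29.7 and 27.6 CPM in A5-KO (0.29, adjusted p = 0.21, limma). In these 3 both A5-KO values were the higher ones. In the other direction stood NDUFA2 (18.1 and 15.9 against 12.8 and 14.8 CPM, difference -0.29, adjusted p = 0.31, limma), COX7A2L (-0.14) and NDUFS4 (-0.10), both with adjusted p above that of NDUFA2. The hepatocyte marker sum was 1092 to 1141 CPM in WT and 1898 to 1924 CPM in A5-KO at 0 h, with 5 of 8 called higher. The mesenchyme sum was 111 to 118 CPM in WT and 196 to 201 CPM in A5-KO, with DCN under 1 CPM and 4 of 5 tested called higher, and the intestine sum was 590 to 619 CPM and 794 to 818 CPM, with 0 called. The part of these markers in the differences was not tested.

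In actinomycin D, a transcript that decays more slowly than the average of the library takes a growing share of it, so its CPM rises without any synthesis. Slopes of log2(CPM + 0.1) per hour were fitted by limma over the 16 PP libraries and are relative rates. The members took 8629 and 9145 CPM in WT at 0 h and 9750 and 10506 CPM at 3 h. In A5-KO they took 8987 and 9563 CPM at 0 h and 10904 and 11377 CPM at 3 h. The 3 h libraries of each genotype lay above its 0 h libraries, and the sum at 3 h was higher in both A5-KO libraries than in either WT library.

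Members already stood above their 0 h level by 1 h. Relative to the 0 h mean of the same genotype, the median member in WT stood at 0.14 and 0.14 after 1 h, at 0.19 and 0.04 after 2 h and at 0.11 and 0.22 after 3 h on the log2 scale. In A5-KO it stood at 0.07 and 0.30 after 1 h, at 0.20 and 0.19 after 2 h and at 0.25 and 0.32 after 3 h. The median gene stood at -0.10 to -0.19 in the WT libraries and at -0.12 to -0.27 in the A5-KO libraries after 0 h. The 2 replicates stood apart in WT at 2 h, where replicate 2 held the lowest CPM of the whole time course for 17 of 77 members, and in A5-KO at 1 h. At 0 h replicate 1 was the lower in both genotypes, with the median member at -0.05 against 0.05 in WT and -0.06 against 0.06 in A5-KO. The lowest CPM lay in replicate 1 at 0 h for 24 members in WT and 19 in A5-KO. Both libraries at 3 h lay above both at 0 h for 42 members in WT (54.5%, against 15.6% of all genes) and for 58 in A5-KO (75.3%, against 24.3%).

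**Figure D2:**
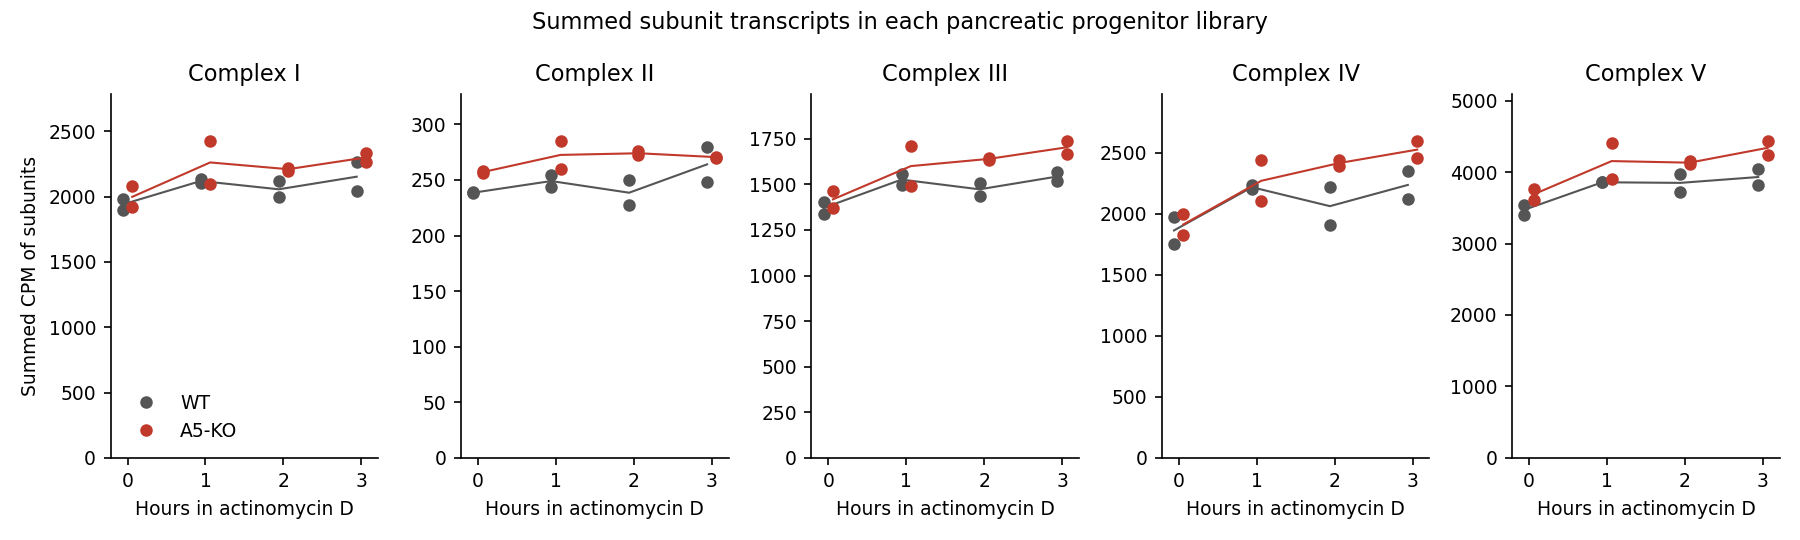
Summed CPM of the members of each complex in each PP library against hours in actinomycin D, with WT in grey and A5-KO in red, points for libraries and lines through the means of 2. The sums of complexes I, III, IV and V are higher at 3 h than at 0 h in both genotypes, and that of complex II stays between 227 and 285 CPM throughout.

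In WT, no single member had a slope that passed the test. Slopes were above 0 for 70 of 77 members, against 5057 of 13620 genes, with a median of 0.05 per hour against -0.03 for all genes. Even so, limma called 0 members rising and 0 falling, and edgeR also called 0. Of all 13620 genes, 0.242% were called in WT. Without adjustment, 4 members rose and 0 fell at p below 0.05, against 265 and 1554 of 13620 genes. The WT count depended on the times used, since 13 members rose and 1 fell when 0 and 1 h alone were fitted (where 2.17% of all genes rose and 25.4% fell), and 5 rose with 0 and 3 h (1.64% and 16.1%). ATP5ME had the steepest WT slope, 0.13 (SE 0.088), followed by ATP5F1D, the delta subunit of the ATP synthase (0.11, SE 0.068), ATP5MF, a membrane subunit of it (0.10, SE 0.042), and COX6C of complex IV (0.10, SE 0.046). At the other end were NDUFA11 (-0.06), NDUFV3 (-0.04) and NDUFB4 (-0.02), all of complex I. None of these had an adjusted p under 0.35 in limma.

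In A5-KO, 32 of 77 members rose and 1 fell relative to the library, where 7.44% of all genes rose and 37.1% fell (limma, adjusted p below 0.05). The median slope was 0.09 per hour for members and -0.08 for all genes, and 62 of 77 members and 4605 of 13620 genes had slopes above 0. The count was 9 without A5-KO 0 h replicate 1, 18 without A5-KO 0 h replicate 2 and 17 without A5-KO 3 h replicate 2. Scaling by median of ratios moved the median slope of all genes from -0.08 to 0.02, and under it 61 members rose and 0 fell, where 23.4% of all genes rose and 26.7% fell. With 1, 2 and 3 h alone, 1 member rose and 1 fell, where 2.14% of all genes rose and 18.4% fell. Of the 91 members, 49 share exon bases with another annotated gene and 50 have pseudogenes of the same name. Among those that rose, NDUFS7 shares 51.4%, ATP5PF 37.3%, NDUFB2 35.9% and COX8A 35.4% of its exon bases, and COX6C has 17 named pseudogenes. The part of such reads in the slopes was not tested.

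Complex IV had the largest share of members that rose in A5-KO, 9 of 12 tested, with a median slope of 0.14 per hour and all 12 slopes above 0. COX8A rose by 0.18 per hour (SE 0.051, adjusted p = 0.0074, limma), from 60 and 64.9 CPM at 0 h to 89.2 and 100 CPM at 3 h. COX7C rose by 0.17 per hour (SE 0.051, adjusted p = 0.0099, limma), from 345 and 402 CPM to 505 and 548 CPM. In both genes the 3 h libraries were clear of the 0 h libraries. COX5B, COX6C, COX7A2, COX6A1, NDUFA4, COX6B1 and COX4I1 rose by 0.16, 0.16, 0.15, 0.15, 0.13, 0.11 and 0.10 per hour. COX5A, COX7B (slope 0.08, adjusted p = 0.25, limma) and COX7A2L (0.07, adjusted p = 0.11, limma) did not pass.

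For complex III, 5 of 10 members rose and 1 fell, with a median slope of 0.11 per hour. UQCRH rose by 0.18 per hour (SE 0.046, adjusted p = 0.0041, limma), from 222 and 255 CPM at 0 h to 327 and 378 CPM at 3 h. UQCR11, UQCRQ and UQCRB, small subunits of the complex, rose by 0.16, 0.14 and 0.13 per hour, and UQCRC1, a core protein, by 0.08. The member that fell was UQCRFS1, the Rieske iron-sulfur protein. In A5-KO it measured 162 and 157 CPM at 0 h, then 146 and 184 CPM after 1 h, 140 and 124 CPM after 2 h and finally 129 and 125 CPM, with a slope of -0.13 (SE 0.042, adjusted p = 0.019, limma). In WT it measured 139 and 135 CPM at 0 h and 134 and 135 CPM at 3 h, with a slope of 0.00. The A5-KO 3 h libraries lay below both 0 h libraries, but the call was lost without A5-KO 3 h replicate 2 (adjusted p = 0.059), and under median-of-ratios scaling the slope was -0.03. Cytochrome c1, encoded by CYC1, had a slope of 0.04 (adjusted p = 0.32, limma), and UQCRHL a slope of 0.26 at 3.57 to 8.88 CPM that did not pass (adjusted p = 0.083, limma).

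For complex V, 8 of 18 members rose, with a median slope of 0.09 per hour and all 18 slopes above 0. ATP5ME had the steepest slope of all members, 0.32 per hour (SE 0.088, adjusted p = 0.0069, limma). In A5-KO it measured 11.2 and 12.5 CPM at 0 h, then 14 and 14.8 CPM after 1 h, 14 and 17.5 CPM after 2 h and finally 20.1 and 29.5 CPM. The values were higher at 3 h than at any earlier time, and the call was lost without A5-KO 3 h replicate 2 (adjusted p = 0.069). ATP5ME shares 61.3% of its exon bases with MYL5 on the opposite strand, and the files do not say whether strand was used in counting. ATP5F1E, the epsilon subunit of the rotor, rose by 0.20 per hour (SE 0.058, adjusted p = 0.0096, limma), from 105 and 138 CPM to 166 and 206 CPM, and the call was lost without A5-KO 0 h replicate 1 or 3 h replicate 2. ATP5MJ, ATP5MK, ATP5MF and ATP5PF rose by 0.15, 0.12, 0.12 and 0.12. ATP5MC3, the third c-ring gene, rose by 0.09, and ATP5F1B by 0.06 from 926 and 962 CPM at 0 h. ATP5F1A (0.05), ATP5MC1 (0.06), ATP5MC2 (0.07) and the inhibitor ATP5IF1 (0.05) did not pass.

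For complex I, 9 of 33 members rose, with a median slope of 0.08 per hour. NDUFA1, a small membrane subunit, rose by 0.19 (SE 0.054, adjusted p = 0.008, limma), from 37.7 and 42.1 CPM at 0 h to 55.6 and 63.4 CPM at 3 h. NDUFB2 rose by 0.19 (SE 0.05, adjusted p = 0.0054, limma), from 30.4 and 39.3 CPM to 52.2 and 52.5 CPM, and the call was lost without A5-KO 0 h replicate 1. The 3 h values of both genes were above all of their 0 h values. NDUFA2, NDUFS7, NDUFB7, NDUFS5, NDUFV1, NDUFA10 and NDUFB5 rose by 0.18, 0.15, 0.14, 0.14, 0.13, 0.09 and 0.09. Among these NDUFV1 carries the NADH-binding site. Its partner core subunit NDUFS1 had a slope of -0.01 (adjusted p = 0.73, limma) and the acyl carrier NDUFAB1 one of 0.03 (adjusted p = 0.44, limma). The lowest slopes were those of NDUFA11 (-0.13, adjusted p = 0.22, limma), NDUFV3 (-0.11, adjusted p = 0.067, limma) and NDUFC2 (-0.09, adjusted p = 0.34, limma).

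Complex II had the lowest median slope. Its median slope in A5-KO was -0.04 per hour, and 1 of 4 members rose. SDHC, a membrane anchor, rose by 0.08 (SE 0.028, adjusted p = 0.023, limma), from 133 and 132 CPM at 0 h to 154 and 157 CPM at 3 h. SDHA, SDHB and SDHD had slopes of -0.07, -0.02 and -0.06, none of which passed, and SDHA was near 8 CPM throughout (6.89 to 10.9 CPM). With 4 members, the complex gives no comparison with the others beyond these values.

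The slopes of single members were not shown to differ between the genotypes. Limma called 0 members for the A5-KO minus WT slope, where 2.67% of all genes were called, and edgeR also called 0. At an unadjusted p below 0.05, 0 members had a higher and 1 a lower slope in A5-KO, against 322 and 2725 of 13620 genes. The difference was above 0 for 53 of 77 members, against 4305 of 13620 genes, with a median of 0.03 against -0.07 for all genes. The farthest were ATP5ME (0.19, SE 0.125), NDUFA2 (0.16, SE 0.079) and ATP5F1E (0.14, SE 0.081) on the one side and UQCRFS1 (-0.13, SE 0.059), NDUFA9 (-0.11, SE 0.078) and SDHD (-0.10, SE 0.059) on the other. UQCRFS1 passed with 0 and 3 h alone (adjusted p = 0.046, limma). In that setting 20.1% of all genes were called with a lower slope in A5-KO and 2.14% with a higher one. Over the same libraries the 6 PP markers stood at different levels. Their summed level went from between 711 and 925 CPM at 0 h to 220 to 255, 145 to 337 and 263 to 284 CPM after 1, 2 and 3 h in WT, and from between 645 and 742 CPM to 223 to 228, 101 to 106 and 58.3 to 67.6 CPM in A5-KO. Their part in the slopes was not tested.

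After 3 h in actinomycin D most members were higher in A5-KO than in WT by small amounts. Of 77 differences 61 were above 0, against 4933 of 13444 genes. Limma called 1 of 77 members higher in A5-KO (1.3%, against 1.07% of all 13444 genes) and 0 lower, where 16.6% of all genes were lower. Both edgeR and DESeq2 also called 1 member higher and 0 lower (all genes 2.65% and 2.66% higher, 13.3% and 13.2% lower). Without adjustment, 21 members were higher and 1 lower at p below 0.05, against 1148 and 4166 of 13444 genes. The median difference was 0.17 for members and -0.12 for all genes, and 0.27 and -0.02 under median-of-ratios scaling. Leaving out WT 3 h replicate 1 brought the member median to 0.07 and leaving out A5-KO 3 h replicate 2 brought it to 0.11. Both A5-KO libraries lay above both WT libraries for 37 members (48.1%, against 20.5% of all genes) and below for 4 (5.19%, against 45.5%). By complex the medians were 0.13 for I, -0.05 for II, 0.16 for III, 0.18 for IV and 0.19 for V. At this time the hepatocyte markers summed to 1488 to 1623 CPM in WT against 2179 to 2330 CPM in A5-KO, and the mesenchyme markers to 168 to 173 CPM against 288 to 300 CPM, and their part was not tested.

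The member called at 3 h was ATP5ME, at 16.7 and 13.7 CPM in WT against 20.1 and 29.5 CPM in A5-KO. The A5-KO values were the higher, but they lay far apart (difference 0.65, SE 0.187, adjusted p = 0.031, limma). Without A5-KO 3 h replicate 2 the difference was 0.38 (adjusted p = 0.33), without WT 3 h replicate 2 it fell under 1.5-fold at 0.52, and with all genes kept, however low, the adjusted p was 0.2. Next were UQCRQ, at 68.3 and 68.3 CPM in WT against 94.8 and 89.9 CPM in A5-KO (0.43, SE 0.082, adjusted p = 0.005, limma), and ATP5MF, at 43.2 and 47.3 CPM in WT against 60.4 and 60.8 CPM in A5-KO (0.42, SE 0.094, adjusted p = 0.011, limma). Both were clear of WT in each library and below the 1.5-fold limit. The lowest were NDUFV3 (40.9 and 43.8 against 32.9 and 37 CPM, -0.27, adjusted p = 0.091, limma), NDUFS4 (-0.22) and NDUFB4 (-0.15), none called.

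Related gene lists are given by their counts and medians, side by side with the subunits and without a test between lists. Of 58 assembly factors, 54 were tested in the time course, and in A5-KO 2 rose (3.7%) and 15 fell (27.8%), with a median slope of -0.05 per hour, where 7.44% of all genes rose and 37.1% fell. COA7, a complex IV assembly factor, fell by 1.02 per hour on the log2 scale in A5-KO (SE 0.152, adjusted p = 6.6e-05, limma). It went from 31.9 and 24.6 CPM at 0 h to 3.95 and 2.72 CPM at 3 h. In WT it went from 23.9 and 19.4 CPM at 0 h to 5.49 and 8.62 CPM at 1 h and 8.5 and 11.6 CPM at 3 h. Of 74 mitochondrial ribosomal proteins tested, 0 rose and 31 (41.9%) fell by limma in A5-KO, a share near the 37.1% of all genes. Their median slope was -0.10. At an unadjusted p below 0.05, 1 rose and 38 fell, against 1403 and 5634 of 13620 genes. Of 76 cytosolic ribosomal proteins, 64 rose and 2 fell (median 0.15), and in WT their median slope of 0.05 equalled that of the respiratory subunits. Of 17 enzymes of the tricarboxylic acid cycle other than succinate dehydrogenase, 3 rose and 2 fell (median 0.01).

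The subunits encoded by mitochondrial DNA join the members in complexes I, III, IV and V. Of 13, 0 rose and 7 (53.8%, against 37.1% of all genes) fell by limma in A5-KO. At an unadjusted p below 0.05, 0 rose and 8 fell, against 1403 and 5634 of 13620 genes. The 13 had a median slope of -0.13 per hour against 0.02 in WT. In the fit without a replicate block (the replicate number as a term, which showed little pairing of the samples), the slope was called different between genotypes for 3 of them. MT-ND2 of complex I went from 4707 and 3947 CPM at 0 h to 1543 and 1443 CPM at 3 h in A5-KO, and from 3627 and 3329 to 2936 and 3059 CPM in WT (difference -0.42 per hour, SE 0.064, adjusted p = 0.036, limma). MT-CYB (-0.23) and MT-ND1 (-0.20) differed in the same direction, both at an adjusted p of 0.036 (limma). With the block all 3 calls were lost (adjusted p = 0.053 each, limma). Before the drug all 13 stood higher in A5-KO, by a median of 0.24, as did 7858 of 13911 genes. Limma called 0 of the 13. At an unadjusted p below 0.05, 9 were higher, against 1531 of 13911 genes. In the hILO files all 13 were listed at 0 in every library, so no level could be compared there.

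Of 14 regulators of mitochondrial biogenesis, 0 rose and 11 (78.6%, against 37.1% of all genes) fell relative to the library by limma in A5-KO. At an unadjusted p below 0.05, 0 rose and 11 fell, against 1403 and 5634 of 13620 genes. The 14 had a median slope of -0.40 per hour. GABPB2, TFAM and POLRMT did not pass, and in WT 0 of the 14 were called. At an unadjusted p below 0.05, 0 rose and 2 fell in WT, against 265 and 1554 of 13620 genes. Over all genes in WT, 0.11% were called falling in this fit but 25.4% with 0 and 1 h alone, a setting not counted for the lists. NRF1 went from 16.8 and 11.7 CPM at 0 h to 1.19 and 1.39 CPM at 3 h in A5-KO (slope -1.15, SE 0.145, adjusted p = 2.3e-05, limma). In WT it went from 13.4 and 10.8 to 4.59 and 6.38 CPM. By 1 h it already stood lower in both genotypes, at 4.55 and 5.5 CPM in WT and 6.01 and 6.57 CPM in A5-KO. GABPB1, a subunit of the ETS factor GABP, had a slope that differed between genotypes by -0.56 per hour (SE 0.127, adjusted p = 0.041, limma), a call lost with the replicate block (adjusted p = 0.058). TFAM, which packages mitochondrial DNA, stood at 158 and 142 CPM at 0 h and 128 and 122 CPM at 3 h in A5-KO. At 0 h no gene of these lists was called between the genotypes by limma. Outside the cytosolic ribosome, 0 to 13 members of a list were higher and 0 to 2 lower at an unadjusted p below 0.05. In the cytosolic ribosome 1 was higher and 8 lower. Of all 13911 genes, 1531 were higher and 1153 lower at that limit. Counts by other tools were not made for these lists.

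The members are short transcripts. For the 77 tested in PPs, the canonical GENCODE transcript had a median length of 756 bases, with 426 coding bases and 189 bases of 3′ untranslated region, against 3466, 1437 and 1370 bases for 12228 protein-coding genes tested. The letters ATTTA, a motif of unstable mRNAs, occurred in the 3′ untranslated region of 36 members (46.8%, against 73.7% of all). The letters GGACT, the commonest context of m6A, occurred in the transcript of 50 members (64.9%, against 91.8%), at a median of 0.773 per kilobase against 0.921. Shorter sequences hold fewer matches by length alone, and no m6A was measured in these libraries. The canonical transcripts of NDUFS1, UQCRB and NDUFA9 were exceptions, with 9368, 8108 and 7209 bases of 3′ untranslated region.

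Slopes are given by length quartile of all genes. Of the 77 members, 52 fell in the quartile of genes with the shortest 3′ untranslated regions (0 to 539 bases), where the median A5-KO slope was 0.11 for members and -0.01 for all genes, and where 44.2% of members and 11.3% of all genes rose. In the next quartile, 9 members had a median slope of 0.08 against -0.08 for all genes, and 33.3% of members against 8.87% of all genes rose. In the third, 7 members had a median slope of 0.07 against -0.11, and 28.6% against 6.5% rose. In the quartile with the longest regions (2824 to 32870 bases), 9 members had a median slope of 0.06 against -0.15 for all genes, and 44.4% against 4.39% rose. The member medians stepped down with length as those of all genes did. The 32 members that rose had a median 3′ untranslated region of 194 bases and the 44 with no call one of 178 bases. UQCRFS1, the member that fell, has 2228 bases. These are descriptions without a test, as genes are not replicates.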

How the data were processed

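The authors trimmed reads with fastp and aligned them to GRCh38 (hg38) with HISAT2 2.1.0. For hILOs they deposited TPM per gene from StringTie, and for PPs CPM per gene after removing the ERCC spike-ins. The annotation release, the read counter behind the CPM and its use of strand are not given in the sources used here. TPM keeps no depth. The CPM were whole multiples of 1 read within 0.1 reads, which gave back 30516384 to 35206514 reads per library. Slopes are relative to each library, since no spike-in was used here.

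The 91 members, the other gene lists and the motifs were chosen with earlier results of these data known. Symbols, exon overlaps, pseudogene names and transcripts came from GENCODE 44 (60370 of 60624 identifiers matched in hILOs and 60369 of 60623 in PPs), promoters from RefSeq. Levels were compared with limma 3.58.1 in R 4.3.3 (trended eBayes) on log2(TPM + 1) or log2(CPM + 1), keeping genes whose mean reached 1, within hILOs and within PPs at 0 h and at 3 h, and calls needed an adjusted p (Benjamini-Hochberg) under 0.05 and more than 1.5-fold. Slopes came from 1 limma fit to log2(CPM + 0.1) over 16 PP libraries, called at an adjusted p below 0.05. p-values were adjusted over all genes tested. edgeR 4.0.16 and DESeq2 1.42.0 were run on the recovered reads as alternatives, beside other pseudocounts, filters, scalings, time points and each library left out.

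Members named with values are those called in a comparison (if more than 12, the 5 with the largest change in each direction at a mean of at least 10), the 3 with the largest change in each direction at a mean of at least 10, the highest and lowest of each complex in hILOs, and a fixed set of isoforms and core subunits. Others, the 4 promoters and the 4 members that differed between hILO replicates were chosen after their values were seen. The code was tested on simulated data.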

Additional observations from a re-analysis of the deposited data

Results flagged for a closer look

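Both libraries of a genotype lay on opposite sides of the other genotype at the 2 stages for 2 of 77 members tested in both (2.6%), where 15% of 12729 genes tested in both did so. NDUFA5 was lower in both A5-KO libraries in hILOs (-0.96 on the log2 scale) and higher in both in PPs at 0 h (0.14). SDHA was higher in both A5-KO libraries in hILOs (0.27) and lower in both in PPs at 0 h (-0.05), where it stood at 8.73 and 8.58 CPM in WT against 8.04 and 8.58 CPM in A5-KO, so that the genotypes were barely separated. The difference between the stages was not tested, since the tables hold different units.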

How the results depend on the processing

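In hILOs, 4 members were higher without a limit on the fold, where 5.27% of all genes were. Without a filter on low values 0 were lower, where 0.533% of all genes were. Leaving out 1 library at a time gave 0 to 1 higher and 0 to 3 lower, with 0 lower without either WT library, 2 without A5-KO replicate 1 and 3 without A5-KO replicate 2. The median difference was 0.11 with median-of-ratios scaling, 0.09 with quantile normalization, 0.09 with TPM rescaled to the same total and 0.03 to 0.07 with a library left out. In PPs at 3 h, 0 members were higher without a filter, where 0.194% of all genes were. With quantile normalization 2 were higher (5.05% of all genes), and without a limit on the fold 7 were (4.36%). The difference of ATP5ME, the member called, ranged from 0.38 to 0.92 with a library left out. The median there was 0.27 with median-of-ratios scaling, 0.31 with edgeR, 0.32 with DESeq2 and 0.07 to 0.16 with a library left out.

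For the WT slope, 5 members rose with 0 and 3 h, where 1.64% of all genes did. With 0 and 1 h, 13 rose and 1 fell, where 2.17% and 25.4% of all genes did. The median was 0.08 with edgeR and also with median-of-ratios scaling, 0.06 with 0 and 3 h, 0.14 with 0 and 1 h, 0.02 with 1, 2 and 3 h and 0.03 to 0.07 with a library left out. For the A5-KO slope, 9 to 39 members rose and 0 to 2 fell with a library left out. With median-of-ratios scaling 61 rose, where 23.4% of all genes did, and with edgeR 58 (22.3% of all genes). With 0 and 1 h 17 rose (8.52% of all genes), and with 1, 2 and 3 h 1 did (2.14%). With median-of-ratios scaling and with edgeR 0 fell, where 26.7% and 27.3% of all genes did. The median was 0.19, 0.18, 0.17 and 0.04 under these 4 settings and 0.06 to 0.10 with a library left out. UQCRFS1 had an A5-KO slope of 0.04 with 0 and 1 h. For the slope difference, 1 member was called lower with 0 and 3 h, where 20.1% of all genes were. The member median was 0.10 with edgeR, 0.10 with median-of-ratios scaling and 0.01 to 0.06 with a library left out. The cause of these shifts was not tested. Median-of-ratios scaling moved the median of all genes from -0.12 to -0.02 at 3 h.

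Replicate numbers showed little pairing of the samples over genes at a mean of at least 10. Deviations of same-numbered libraries correlated at 0.044 in hILOs and at 0.289, -0.019, -0.113 and 0 in PPs at 0, 1, 2 and 3 h. Among members, replicate 1 had the lower median in both genotypes at 0 h. With a replicate block, 31 members rose and 1 fell in A5-KO, and the other counts of members called did not move. Over all genes the block took the slope differences called from 9 rising and 355 falling to 0 and 0. TPM keeps no depth, so the precision of the hILO values is known only from 2 libraries a group.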
